A study of Homo sapiens with 14 samples.

Results

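Promoters of protein-coding genes that carried a SKI peak in every SKI list and no RUNX1 peak were described in HL60 cells. HL60 is an established line from a patient with acute myeloid leukaemia, and its cells keep a capacity for granulocytic and monocytic maturation. The members are peaks of the SKI list of unmodified cells, replicate 2. Each had the authors' position class for a transcription start site (TSS) and a protein-coding nearest gene. Each overlapped by at least 1 bp a SKI peak of CRISPR/Cas9 control cells and one of unmodified cells, replicate 1, and overlapped no RUNX1 peak of unmodified cells. Of 14431 peaks in the list of replicate 2, 7566 had the TSS class and 6297 of these lay at protein-coding genes. Of the 6297, 4275 had a peak in both other SKI lists, 629 of them with a RUNX1 peak and 3646 without. The share without RUNX1 was thus 85.3%, against 55.3% of intronic and 52.9% of intergenic SKI peaks in all 3 lists. It was 95.8% of the 2022 promoter SKI peaks not in all 3 lists. The 3646 members lay at 3036 Ensembl genes.

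The series maps SKI, RUNX1 and other chromatin proteins by chromatin immunoprecipitation and sequencing (ChIP-seq), and 4 of its 14 samples were used. They were SKI in control cells (1 list, labelled CTR), SKI in unmodified cells (2 lists, labelled WT) and RUNX1 in unmodified cells (1 list). All cells were grown in RPMI medium with fetal calf serum, crosslinked with formaldehyde and precipitated with an antibody to SKI or to RUNX1. The other 10 samples, cells with SKI deleted among them, were not analysed here, and SKI-independent signal in these peaks was therefore not measured. There is 1 SKI list of control cells, and the 2 of unmodified cells differ in length and in the scale of their fold enrichment, so both unmodified values are given in place of a mean and error. Regions of a list are not replicates, and all values below describe these lists with no difference tested. SKI peaks and RUNX1 peaks chose the members, so neither their presence in the lists nor the absence of RUNX1 is a finding.

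SKI is a corepressor without enzymatic activity that is brought to DNA by partner proteins, the SMAD effectors of TGF-beta signalling best known among them, and that recruits NCOR and SIN3A complexes with histone deacetylases. RUNX1 binds DNA directly with its partner CBFB and is required for blood cell formation. Promoters of broadly used genes are often rich in GC and in CpG dinucleotides and are bound by factors such as the SP and KLF proteins, which read GC boxes.

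Promoter sequences of 7 members are shown because they hold the features described below: the TGF-beta pathway genes, the strongest sites and a splicing and a translation gene. They were the highest ranked members of their kind with a single RefSeq start and a deposited distance of at most 250 bp to the TSS. The windows run from 250 bases before to 50 after the start of the gene, 5′ to 3′ on its strand, in RefSeq on GRCh38.p14. The peak lists are on hg19, and the windows were joined to them by gene symbol, so the overlap of a peak with its window was not measured. Capitals mark the GC box GGGCGGG on either strand and the palindromic SMAD element GTCTAGAC.
SMAD6 (chr15:66701986-66702285, plus strand): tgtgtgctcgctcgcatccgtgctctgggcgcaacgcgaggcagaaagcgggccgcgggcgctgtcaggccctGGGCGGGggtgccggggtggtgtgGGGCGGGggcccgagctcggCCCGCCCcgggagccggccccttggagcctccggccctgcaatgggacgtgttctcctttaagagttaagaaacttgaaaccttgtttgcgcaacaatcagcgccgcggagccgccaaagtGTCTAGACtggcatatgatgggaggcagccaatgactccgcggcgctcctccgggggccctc
TGFB1 (chr19:41353873-41354172, minus strand): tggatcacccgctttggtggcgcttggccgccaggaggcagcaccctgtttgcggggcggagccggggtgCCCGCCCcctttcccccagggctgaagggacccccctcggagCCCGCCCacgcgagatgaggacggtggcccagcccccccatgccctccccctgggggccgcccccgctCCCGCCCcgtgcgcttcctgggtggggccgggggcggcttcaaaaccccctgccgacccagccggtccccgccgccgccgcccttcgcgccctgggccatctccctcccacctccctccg
SMURF2 (chr17:64662258-64662557, minus strand): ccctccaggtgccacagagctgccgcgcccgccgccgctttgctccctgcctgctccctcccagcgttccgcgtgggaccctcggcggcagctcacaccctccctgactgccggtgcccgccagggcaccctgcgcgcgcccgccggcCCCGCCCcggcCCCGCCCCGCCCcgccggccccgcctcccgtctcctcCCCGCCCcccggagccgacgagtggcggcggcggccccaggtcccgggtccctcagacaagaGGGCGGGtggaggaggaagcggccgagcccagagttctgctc
SNX7 (chr1:98661471-98661770, plus strand): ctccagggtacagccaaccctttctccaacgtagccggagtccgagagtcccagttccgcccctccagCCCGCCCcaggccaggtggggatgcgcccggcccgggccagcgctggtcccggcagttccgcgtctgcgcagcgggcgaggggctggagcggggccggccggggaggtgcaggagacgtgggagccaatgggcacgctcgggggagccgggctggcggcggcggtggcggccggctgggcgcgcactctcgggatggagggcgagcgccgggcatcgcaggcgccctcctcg
MARCHF3 (chr5:127030509-127030808, minus strand): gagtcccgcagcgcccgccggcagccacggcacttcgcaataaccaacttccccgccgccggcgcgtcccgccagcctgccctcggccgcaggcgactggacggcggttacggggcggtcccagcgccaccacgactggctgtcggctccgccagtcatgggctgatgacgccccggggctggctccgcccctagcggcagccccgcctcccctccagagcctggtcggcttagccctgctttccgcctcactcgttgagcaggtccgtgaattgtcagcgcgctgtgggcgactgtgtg
HNRNPA2B1 (chr7:26200697-26200996, minus strand): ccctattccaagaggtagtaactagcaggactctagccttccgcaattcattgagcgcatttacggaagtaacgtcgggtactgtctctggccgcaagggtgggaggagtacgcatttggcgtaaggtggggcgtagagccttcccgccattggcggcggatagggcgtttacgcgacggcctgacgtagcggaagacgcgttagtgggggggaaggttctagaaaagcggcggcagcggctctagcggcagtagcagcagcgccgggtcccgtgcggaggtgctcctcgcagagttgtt
EIF4A1 (chr17:7572575-7572874, plus strand): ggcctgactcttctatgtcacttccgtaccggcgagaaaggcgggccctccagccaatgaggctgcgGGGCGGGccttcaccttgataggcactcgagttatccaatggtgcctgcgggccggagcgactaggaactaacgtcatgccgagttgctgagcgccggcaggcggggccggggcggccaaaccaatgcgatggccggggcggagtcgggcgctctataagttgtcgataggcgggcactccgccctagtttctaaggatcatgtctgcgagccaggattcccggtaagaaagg
The SMAD6 window held 3 GC boxes and the SMAD element, a match found in 6 of 3702 promoters of the members' genes (0.162%) and in 0.217% of all 22132 protein-coding promoters in the table. TGFB1 held 3 GC boxes, SMURF2 5, and SNX7 and EIF4A1 1 each. MARCHF3, which the lists name MARCH3, and HNRNPA2B1 held none. The RUNX core TGTGGT was in none of the 7 windows.

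The strongest members were ranked by their lowest place in any SKI list, by the fold enrichment of tags over background that the authors give for each peak, used to rank peaks within a list. SMAD6, which encodes an inhibitory SMAD, had fold enrichments of 176 in control cells and 128 and 157 in unmodified replicates 1 and 2 (hg19 chromosome 15, 66993184 to 66994962, at -18 bp from the TSS). The value in control cells was the highest of any member in that list. FBRS had 162 in control cells and 108 and 169 in the unmodified replicates, the last being the highest of any member in replicate 2. In replicate 1 the highest value, 180, belonged to JDP2, a bZIP repressor of AP-1 target genes, which had 42.5 in control cells and 32.7 in replicate 2. UBL4A, which takes part in the delivery of membrane proteins, ranked at the head of the order, with 88.2 in control cells and 132 and 83.7 in the unmodified replicates (chromosome X, 153714811 to 153715615, -341 bp). Next came KLF10, a KLF factor known as an early TGF-beta response gene, with 70.1 in control cells and 130 and 69.0 in the unmodified replicates.

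Also among the 20 strongest, ZNF148, a zinc finger protein of GC-rich elements, had 51.2 in control cells and 158 and 100.1 in the unmodified replicates. BCL11A, the repressor of fetal globin genes, had 76.6 in control cells and 120.0 and 95.6 in the unmodified replicates. KAT6A, a histone acetyltransferase rearranged in some myeloid leukaemias, had 95.7 in control cells and 124 and 38.5 in the unmodified replicates. BCOR, a BCL6 corepressor mutated in myeloid leukaemia, held 4 members, and its strongest had 57.4 in control cells and 116 and 38.9 in the unmodified replicates. The nuclear receptor gene PPARG had 60.5 in control cells and 120 and 33.3 in the unmodified replicates. Lysosomal genes were LAMP2, with 43.9 in control cells and 125 and 37.2 in the unmodified replicates, and IDS, with 41.7 in control cells and 153 and 42.1 in the unmodified replicates. The remaining genes were SNX7, FLNA, QPCT, MARCH3, ANKRD11, STAU2, DPH7 and AC008686.1, with 37.0 to 87.7 in control cells. Of the 20 genes, 5 lie on chromosome X and 3 on chromosome 8. At FLNA, an actin crosslinker, the peaks of control cells and of replicate 1 did overlap a RUNX1 peak, as did the replicate 1 peak at PPARG, so these sites are free of RUNX1 by the peak of replicate 2.

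**Figure D1:**
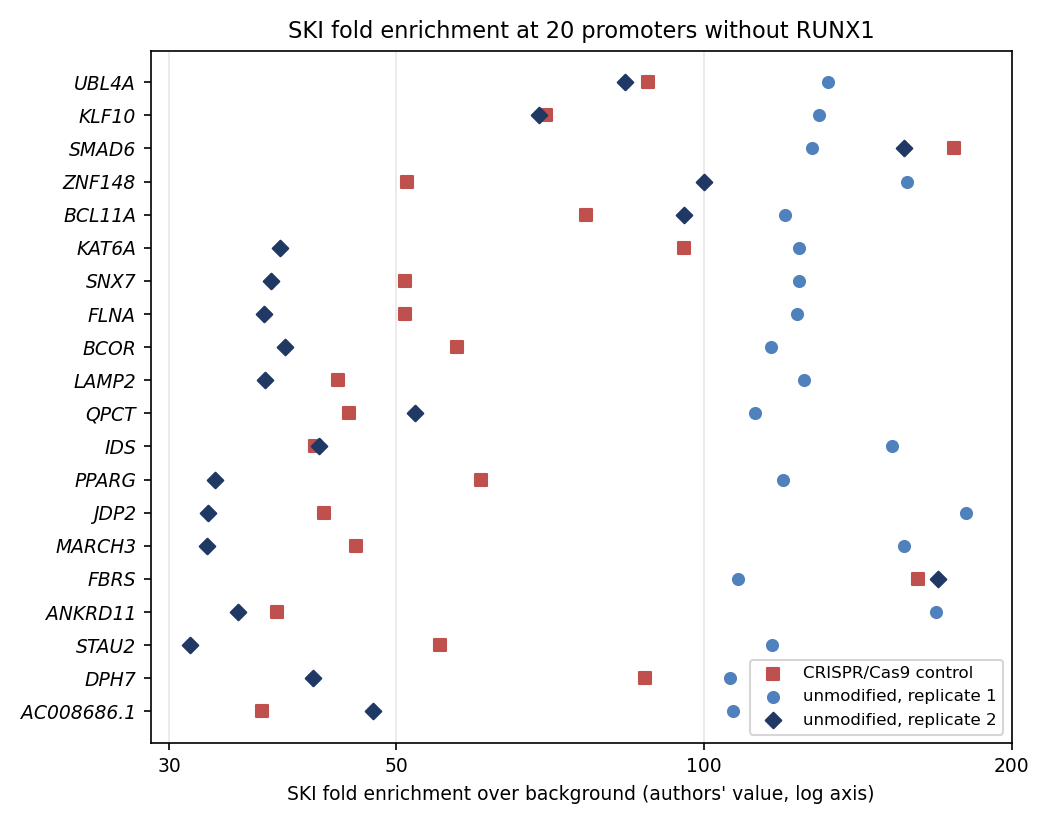
SKI fold enrichment (log axis) of the 20 strongest promoter SKI peaks without RUNX1, in CRISPR/Cas9 control cells and in unmodified replicates 1 and 2, ordered by lowest rank in any list. SMAD6 and FBRS stood over 100 in all 3 lists, while most others were highest in replicate 1, whose list has another scale.

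As a class, the members had lower SKI fold enrichment than the other classes of shared site. Their median fold enrichment was 10.8 in control cells, 38.1 in unmodified replicate 1 and 9.62 in replicate 2. Promoter SKI peaks with RUNX1 had medians of 19.5, 63.5 and 13.8 in the same lists. Intronic SKI peaks without RUNX1, chosen by the same overlaps, had 14.0, 58.9 and 12.2, and intergenic ones 13.3, 55.5 and 11.5. All peaks of the lists had medians of 11.6, 18.8 and 10.4. Median tags per peak gave another order, with 70, 498.5 and 63 for members in the same lists. Intronic peaks had 64, 392.5 and 57 tags, intergenic ones 65, 393 and 57, and promoter peaks with RUNX1 129, 749 and 96. By fold enrichment the members sat in the middle of the lists of control cells and replicate 2, at median percentiles of 44.0 and 44.8. They sat higher in the long list of replicate 1, at 79.3, below intronic peaks (90.2), intergenic ones (89.0) and promoter peaks with RUNX1 (91.6). All these classes had to be peaks of the shorter SKI lists as well. In the strongest 10% of a list were 201 members for control cells, 896 for replicate 1 and 213 for replicate 2, 81 of them in all 3, while 2706 members (74.2%) were in the strongest 10% of none. With all lists held to 5581 peaks, the members' medians were 18.0 in control cells, 63.4 in replicate 1 and 16.2 in replicate 2.

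**Figure D2:**
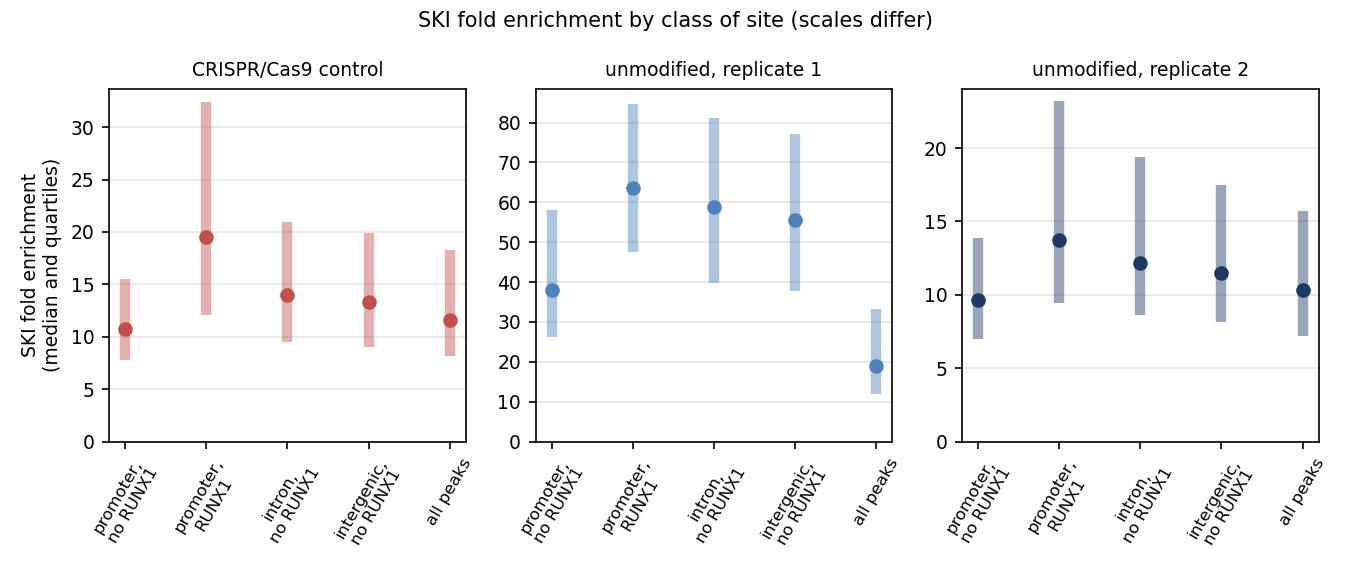
Median (dot) and quartiles (bar) of SKI fold enrichment in each SKI list for promoter peaks without RUNX1, promoter peaks with RUNX1, intronic and intergenic peaks without RUNX1 and all peaks of the list. In each list the promoter peaks without RUNX1 had the lowest median of the 4 classes, and in control cells and replicate 2 it lay just under that of all peaks.

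In width the members fell between the other classes. They were 537 bp wide at the median, against 589 bp for promoter peaks with RUNX1, 424 bp for intronic peaks without it and 472 bp for the whole list of replicate 2. Peaks over 1000 bp made up 7.98% of members, 18.3% of promoter peaks with RUNX1 and 1.50% of the intronic ones. The widest member, 3926 bp, was at DPH7, which encodes an enzyme of diphthamide synthesis, followed by HIVEP2 (2988 bp), KLF12 (2868 bp), SOX12 (2349 bp) and the glucocorticoid receptor gene NR3C1 (2303 bp). At the low end of the list, TM9SF2 had a −log10 p-value of 5.03, RNF2 5.04 and STK40 5.06, just inside the value of about 5 at which the deposited list begins.

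Members lay on both sides of the TSS. The authors' TSS class chose both the members and the promoter SKI peaks with RUNX1. Closeness to the TSS is therefore in part set by the rule, and the distances are a description. The deposited distance had a median of -6 bp and an absolute median of 92 bp, and 1891 members (51.9%, 95% Wilson interval 50.2 to 53.5, counting error only) lay within 100 bp. Promoter SKI peaks with RUNX1 had an absolute median of 216 bp, with 222 (35.3%, 31.7 to 39.1) within 100 bp. Upstream lay 54.1% of members and 53.9% of promoter peaks with RUNX1. Over 1000 bp from the TSS were 5.35% of members and 11.4% of promoter peaks with RUNX1. Among members, those closest to the TSS had the lowest median fold enrichment: 10.4 in control cells, 35.3 in replicate 1 and 9.55 in replicate 2 within 100 bp, and 12.5, 55.6 and 10.6 in the same lists beyond 1000 bp. The point of the peak from which the distance was taken is not given in the sources used here.

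**Figure D3:**
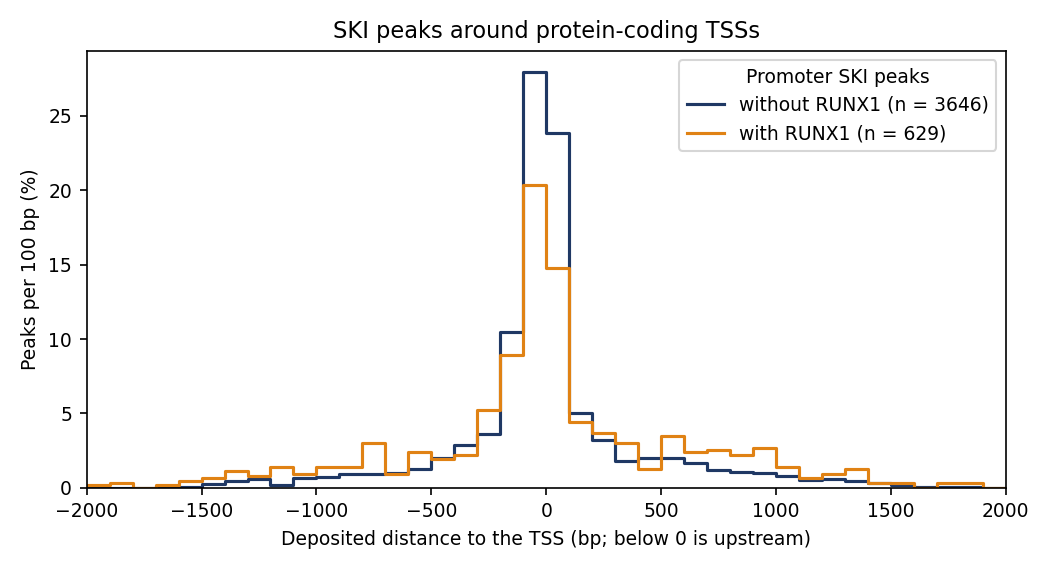
Share of promoter SKI peaks per 100 bp of deposited distance to the TSS (values below 0 are upstream), for the 3646 peaks without RUNX1 and the 629 with RUNX1. The peaks without RUNX1 were more concentrated within 100 bp of the TSS, 51.9% against 35.3%.

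Genes were grouped into 21 lists by function, and a share was read against 14.9%, the percentage of 19980 protein-coding genes that held a member. The background was 26.3% among the 10842 genes with a promoter peak in unmodified replicate 1. This sets aside genes to which no peak of the TSS class was assigned in that list, and it kept 2855 of the 2979 genes with a member. For promoter SKI peaks with RUNX1 the corresponding share of all genes was 2.81%. Of the 21 lists, 17 stood above the background of all genes and 4 below, and 10 stood above and 11 below the narrower one. The Wilson interval of a list's share lay wholly above the narrower background for TGF-beta and SMAD signalling, immediate early and AP-1 genes, the amino acid response and inflammatory signalling, and wholly below it for the respiratory list. Genes of a list are not independent samples, and neither the lists nor their order were tested.

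**Figure D4:**
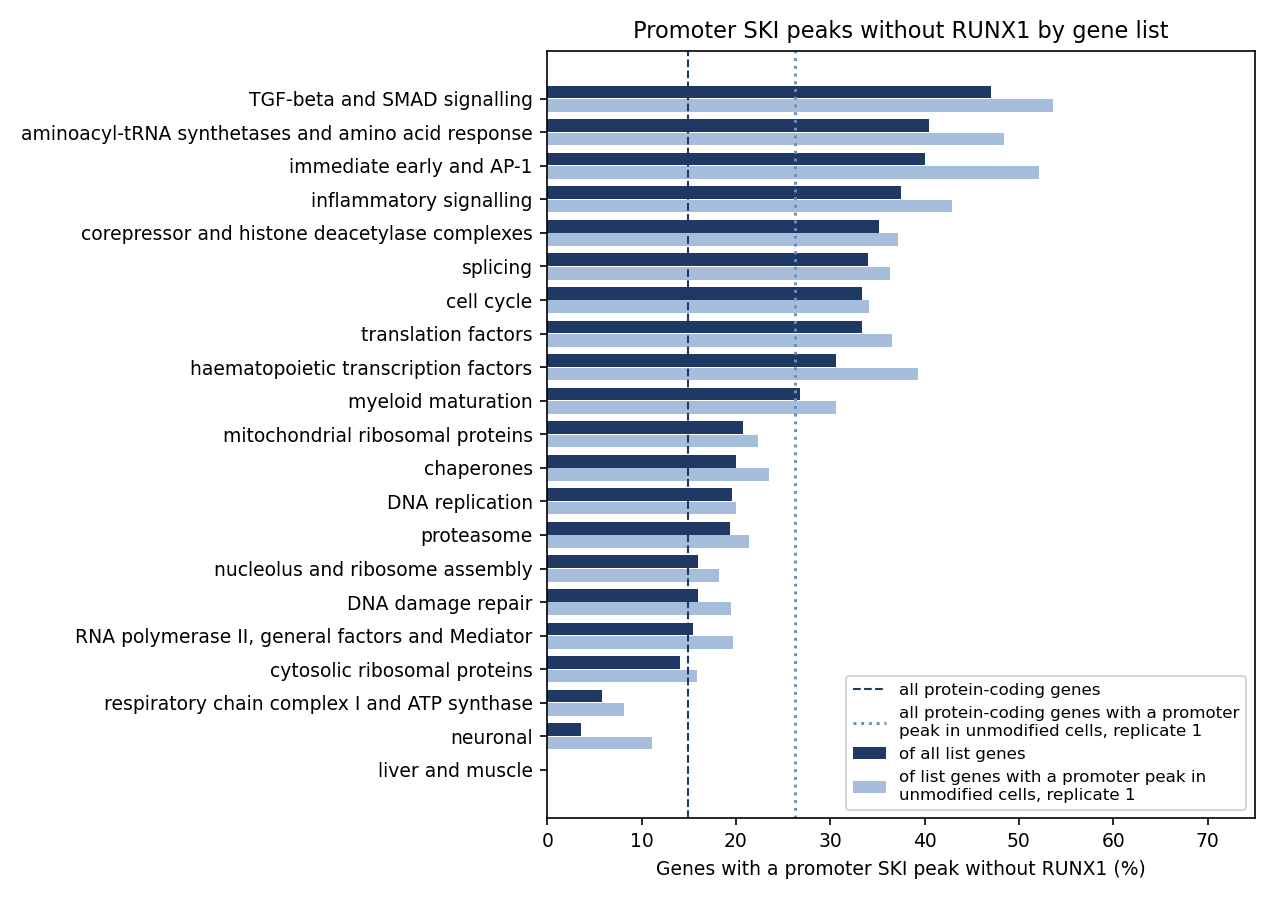
Percentage of genes in each of 21 lists that held a promoter SKI peak without RUNX1, of all list genes (dark bars) and of those with a promoter peak in unmodified replicate 1 (pale bars); lines mark the backgrounds of 14.9% and 26.3%. TGF-beta and SMAD signalling had the highest share, 47.1%, and liver and muscle genes had none.

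TGF-beta and SMAD signalling had a member at 16 of 34 genes (47.1%), and at 15 of the 28 genes with a replicate 1 promoter peak (53.6%). With all lists held to 5581 peaks the count was 7, while the number of all members fell from 3646 to 777. The share of all genes with a member at that setting is not given here. The count of 7 therefore does not show whether the list still stood above its background. A promoter SKI peak with RUNX1 was present at 1 of the 34 genes. Among ligands and receptors, the ligand gene TGFB1 had fold enrichments of 33.7 in control cells and 61.9 and 12.9 in unmodified replicates 1 and 2, and the receptor gene TGFBR1 had 5.56 in control cells and 15.1 and 7.90 in the unmodified replicates. The 4 receptor-activated SMAD genes with a member were SMAD1, SMAD2, SMAD3 and SMAD9. The strongest of these in replicate 2 was SMAD3, with 21.6 in control cells and 38.5 and 19.6 in the unmodified replicates. SMAD9 had 11.6 in control cells and 53.1 and 13.2 in the unmodified replicates, while SMAD1 had 8.72 in control cells and 58.7 and 8.64 in the unmodified replicates. SMAD2 had 7.40 in control cells and 25.2 and 7.54 in the unmodified replicates. The shared partner SMAD4 had 6.91 in control cells and 47.1 and 8.34 in the unmodified replicates. Against these, the inhibitory SMAD6 stood far above every other gene of the pathway in control cells and replicate 2.

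Regulators and targets of the pathway had members as well. SMURF2, a ubiquitin ligase for SMADs and receptors, had 12.9 in control cells and 53.7 and 15.7 in the unmodified replicates. ZFYVE9, an adaptor that presents SMADs to the receptor, had 12.3 in control cells and 56.0 and 17.5 in the unmodified replicates, and the corepressor gene TGIF2 had 20.2 in control cells and 70.2 and 11.0 in the unmodified replicates. At SKI itself the member lay at -1223 bp from the TSS, with 7.88 in control cells and 39.7 and 6.92 in the unmodified replicates. These values stood at percentiles of 22.6, 80.6 and 22.0 of the same lists. Members were also present at ID1, ID2 and ID3, whose products block bHLH factors. ID1 had 17.0 in control cells and 81.9 and 16.8 in the unmodified replicates, ID2 had 15.5 in control cells and 90.6 and 9.88 in the unmodified replicates, and ID3 had 10.5 in control cells and 41.6 and 7.65 in the unmodified replicates. The members of ID1 and SMAD2 lay 805 and 154 bp from a RUNX1 peak.

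Immediate early and AP-1 genes had members at 12 of 30 genes (40%), and at 12 of 23 with a replicate 1 promoter peak (52.2%). After KLF10, the strongest was the nuclear receptor gene NR4A1, with 25.1 in control cells and 113 and 24.4 in the unmodified replicates. ZFP36, whose product speeds the decay of cytokine mRNAs, had 26.4 in control cells and 72.5 and 20.8 in the unmodified replicates, and ATF3 had 22.9 in control cells and 70.8 and 27.7 in the unmodified replicates. The other members were at SRF, IER5, JUND, DUSP2, EGR2, JUN, MCL1 and FOSL1. The AP-1 subunit genes JUN, with 12.8 in control cells and 36.7 and 13.0 in the unmodified replicates, and JUND, with 8.52 in control cells and 51.8 and 9.61 in the unmodified replicates, had members. Inflammatory signalling had members at 12 of 32 genes (37.5%). NFKBIA, which encodes the inhibitor that holds NF-kappaB in the cytoplasm, had 55.5 in control cells and 81.2 and 19.99 in the unmodified replicates, 242 bp from a RUNX1 peak. Its relative NFKBIE had 26.6 in control cells and 87.6 and 31.5 in the unmodified replicates, and the subunit gene NFKB1 had 13.5 in control cells and 101 and 14.5 in the unmodified replicates.

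The amino acid response and tRNA charging list had members at 17 of 42 genes (40.5%), and at 15 of 31 with a replicate 1 promoter peak (48.4%). TRIB3, a pseudokinase gene induced by amino acid shortage, had 24.7 in control cells and 79.2 and 37.6 in the unmodified replicates. CHAC1, which degrades glutathione, had 19.9 in control cells and 59.9 and 12.1 in the unmodified replicates. CEBPG, whose product dimerises with ATF4, had 11.3 in control cells and 49.9 and 11.5 in the unmodified replicates, and NARS, the asparaginyl-tRNA synthetase gene, had 26.1 in control cells and 47.7 and 14.8 in the unmodified replicates. ATF4 itself, the central factor of this response, was also a member, with 10.7 in control cells and 33.3 and 9.79 in the unmodified replicates. Translation factors had members at 15 of 45 genes (33.3%), and at 36.6% (23.6 to 51.9) of the 41 with a replicate 1 promoter peak, an interval that includes the 26.3% background. The strongest was at EIF4A1, the gene of an RNA helicase that acts at the mRNA cap, with 20.2 in control cells and 82.1 and 12.7 in the unmodified replicates. EIF5B, EIF4A2 and EIF6 followed, at 11.0 to 15.8 in control cells.

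Ribosomal protein genes had members at 11 of 78 cytosolic (14.1%) and 16 of 77 mitochondrial genes (20.8%). Of those with a replicate 1 promoter peak, the shares were 15.9% of 63 and 22.4% of 67, both below 26.3%, with Wilson intervals of 8.86 to 26.8% and 14.1 to 33.7% that include it. The strongest cytosolic member was RPL24, with 21.8 in control cells and 67.3 and 16.5 in the unmodified replicates, followed by RPS14, RPS15 and RPL36. Among mitochondrial ones, MRPL38 led, with 21.4 in control cells and 67.0 and 18.8 in the unmodified replicates. Respiratory complex I and ATP synthase genes had members at 3 of 52 (5.77%), and at 3 of 37 with a replicate 1 promoter peak (8.11%). These 3 were the ATP synthase genes ATP5J, ATP5E and ATP5A1, and ATP5J, the strongest, had 11.3 in control cells and 44.7 and 15.1 in the unmodified replicates.

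Splicing genes had members at 17 of 50 (34%), many of them hnRNP and SR protein genes. Of the 44 with a replicate 1 promoter peak, 36.4% (23.8 to 51.1) had a member, an interval that includes 26.3%. HNRNPA2B1 had 21.6 in control cells and 135 and 31.6 in the unmodified replicates, and SRSF2, which is mutated in myeloid neoplasms, had 17.1 in control cells and 85.3 and 18.6 in the unmodified replicates. HNRNPH1 and HNRNPU had 18.1 and 23.8 in control cells. Cell cycle genes had members at 15 of 45 (33.3%), led by E2F3, with 33.3 in control cells and 118 and 37.2 in the unmodified replicates, and by RB1, with 21.7 in control cells and 69.5 and 20.3 in the unmodified replicates. The cyclin gene CCND2 and the kinase gene CDK6 came next. Of the 44 cell cycle genes with a replicate 1 promoter peak, 34.1% (21.9 to 48.9) had a member, an interval that also includes 26.3%. Shares were 20% of 40 chaperone genes (led by HSP90AA1), 19.6% of 46 DNA replication genes (MCM7), 19.4% of 31 proteasome genes (PSMA1), 16% of 50 DNA repair genes (ERCC1), 16% of 50 genes of the nucleolus (UBTF) and 15.5% of 71 genes of RNA polymerase II, its general factors and Mediator, at or slightly above 14.9%. Among genes with a replicate 1 promoter peak the same 6 lists turned to the other side of the background, at 23.5%, 20%, 21.4%, 19.5%, 18.2% and 19.6%, all below 26.3%. As groups not used in myeloid cells, neuronal genes had 1 member in 28, at GRIN1, and liver and muscle genes 0 of 29. Only 9 neuronal genes had a replicate 1 promoter peak, 1 of them with a member (11.1%, 1.99 to 43.5). Of the 4 liver and muscle genes with such a peak, 0 had a member (0 to 49.0%), and both intervals include 26.3%.

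Corepressor and deacetylase genes, which encode machinery that SKI works with, had members at 13 of 37 genes (35.1%), and 5 of the 37 had a promoter SKI peak with RUNX1. Of the 35 with a replicate 1 promoter peak, 37.1% (23.2 to 53.7) had a member, an interval that includes the 26.3% background. TBL1XR1, a subunit of the NCOR complexes, had 69.9 in control cells and 95.6 and 39.8 in the unmodified replicates, 3418 bp from a RUNX1 peak. The scaffold gene SIN3A had 15.1 in control cells and 97.4 and 38.6 in the unmodified replicates. The deacetylase gene HDAC5 had 29.4 in control cells and 87.9 and 20.4 in the unmodified replicates. HDAC1, HDAC7, RCOR1 and KDM1A were members as well.

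Of the 21 lists, myeloid maturation held the most genes with a RUNX1-bound promoter SKI peak. Haematopoietic transcription factor genes had members at 11 of 36 genes (30.6%) and promoter SKI peaks with RUNX1 at 4. Myeloid maturation genes had members at 11 of 41 (26.8%) and peaks with RUNX1 at 7. For peaks with RUNX1 both lists stood above the background of 2.81%. So did others, among them corepressor genes (5 of 37) and inflammatory signalling (3 of 32). Among genes with a replicate 1 promoter peak, members were at 39.3% (23.6 to 57.6) of 28 haematopoietic and 30.6% (18.0 to 46.9) of 36 maturation genes. Both intervals include 26.3%. LMO2, a bridging subunit of blood transcription complexes, had 63.1 in control cells and 76.3 and 24.0 in the unmodified replicates, and LYL1, a bHLH factor gene, had 27.4 in control cells and 90.7 and 16.7 in the unmodified replicates. These members lay 207 and 144 bp from a RUNX1 peak. HHEX, a homeobox gene, had 34.3 in control cells and 64.4 and 19.1 in the unmodified replicates, and IKZF1, the Ikaros gene, had 15.7 in control cells and 72.9 and 12.6 in the unmodified replicates. The RUNX family itself was represented by RUNX2, 392 bp from a RUNX1 peak, and by CBFB, the gene of the RUNX partner, at 81183 bp. CEBPA and SPI1, the master factors of the myeloid lineage, were members as well. CEBPA had 8.26 in control cells and 75.8 and 17.7 in the unmodified replicates, and SPI1 had 13.1 in control cells and 78.1 and 10.2 in the unmodified replicates. Among maturation genes, S100A8, a subunit gene of calprotectin, had 38.1 in control cells and 124 and 17.1 in the unmodified replicates. CYBA, a subunit gene of the neutrophil oxidase, had 37.2 in control cells and 95.8 and 17.8 in the unmodified replicates, FCGR1A, an Fc receptor gene, had 23.9 in control cells and 114 and 16.1 in the unmodified replicates, and the lactoferrin gene LTF had 15.8 in control cells and 61.5 and 46.0 in the unmodified replicates.

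Absence of a RUNX1 peak from a member did not mean distance from one. The nearest RUNX1 peak was 87122 bp away at the median, but 132 members (3.62%) had one within 1000 bp and 509 (14.0%) within 10000 bp. The closest were ARHGAP4 at 2 bp, ELK3 at 3 bp, UBXN10 at 8 bp, the integrin gene ITGA4 at 18 bp and MAFG at 22 bp. On the other side of the rule, RASGRP2 and PCED1B overlapped a RUNX1 peak by 1 bp, ZNF670 and C3orf58 by 38 bp and ATG16L2 by 44 bp, and were not members. The members within 1000 bp of a RUNX1 peak had median SKI fold enrichments of 14.2 in control cells, 66.9 in replicate 1 and 9.43 in replicate 2, against 10.8, 38.1 and 9.62 for all members. For 79 members the overlapping SKI peak of control cells itself overlapped a RUNX1 peak, and their median in that list was 26.7, against 10.7 for the other 3567. For 168 members the peak of replicate 1 did so, with a median in that list of 69.1, against 37.1 for the other 3478. In replicate 2, whose peaks set the rule, these members had medians of 8.92 and 9.74, against 9.63 and 9.60 for the others. With both kinds left out, 3477 members remained.

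The lists ranked the members alike only in part. Spearman rho of fold enrichment across the 3646 members was 0.620 between control cells and replicate 1, 0.502 between control cells and replicate 2, and 0.635 between the unmodified replicates. Members shared peaks in the other lists: 620 shared their control-cell peak and 884 their replicate 1 peak with another member, so these values are not separate measurements. The 4 members at MIDN shared 1 replicate 1 peak of 131, for example, and had 14.5 to 54.0 in control cells and 9.63 to 19.8 in replicate 2. In all, 523 genes had 2 or more members and 9 had 4, which were BATF3, BCOR, DNAJB12, HNRNPF, MIDN, NFIC, PHF21A, S100A11 and SEPT9. A further promoter SKI peak, this time with RUNX1, was present at 170 of the members' genes.

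Members that ranked far higher in control cells than in replicate 2 were 2 peaks of C20orf112 and those of HIST1H4D, RPS6KA1 and RIN3. The 2 C20orf112 members had 4.83 and 5.18 in replicate 2, with 36 and 66 tags. In the other lists both had the same values, 79.5 with 460 tags in control cells and 86.6 with 1856 tags in replicate 1. RPS6KA1, the gene of a ribosomal S6 kinase, had 87.6 in control cells and 47.6 and 5.68 in the unmodified replicates. All 5 peaks lay 120 to 1663 bp from a RUNX1 peak. The 5 members that ranked far lower in control cells than in replicate 2, at MRPL11, FAM133B, CAPRIN1, PDE7B and HMGA1, lay 21995 to 155834 bp from one. MRPL11, a mitochondrial ribosomal protein gene, had 7.21 in control cells and 88.7 and 50.2 in the unmodified replicates. HMGA1, an architectural chromatin protein gene, had 6.29 in control cells and 63.3 and 22.9 in the unmodified replicates. A value of control cells or replicate 1 belongs to the whole overlapping peak, which can reach beyond the member. With 1 list of control cells, differences of the cells, of the sample and of the extent of the peaks cannot be told apart.

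Members were spread unevenly over the chromosomes. Chromosome 18 had a member at 32.2% of its protein-coding genes, chromosome 13 at 28.7% and chromosome 12 at 23.6%, whereas chromosome 5 had one at 7.74%, X at 4.13% and 8 at 3.64%. The share of genes with a promoter peak in the long list of replicate 1 varied less, being 55.6% on chromosome 18, 47.1% on 8 and 39.2% on X. Where few genes had a member, the members had high fold enrichment. The median fold enrichment was 7.79 in control cells, 25.8 in replicate 1 and 7.07 in replicate 2 on chromosome 18, and 20.9, 64.5 and 14.9 on chromosome 8. On X the medians were 22.3, 88.4 and 19.9. Median tags of members in replicate 2 did not follow this order, at 81.5 on chromosome 18, 52 on 8 and 62 on X. The lowest fold enrichment of a member in replicate 2 was 3.57, 5.96 and 7.24 on the same chromosomes. Across the 23 chromosomes, Spearman rho between the share of genes with a member and the median fold enrichment was -0.847 in control cells, -0.929 in replicate 1 and -0.924 in replicate 2. Both quantities come from the same lists, and the relation was not tested. Ranks by fold enrichment, including the order of the strongest members, favour chromosomes X and 8.

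**Figure D5:**
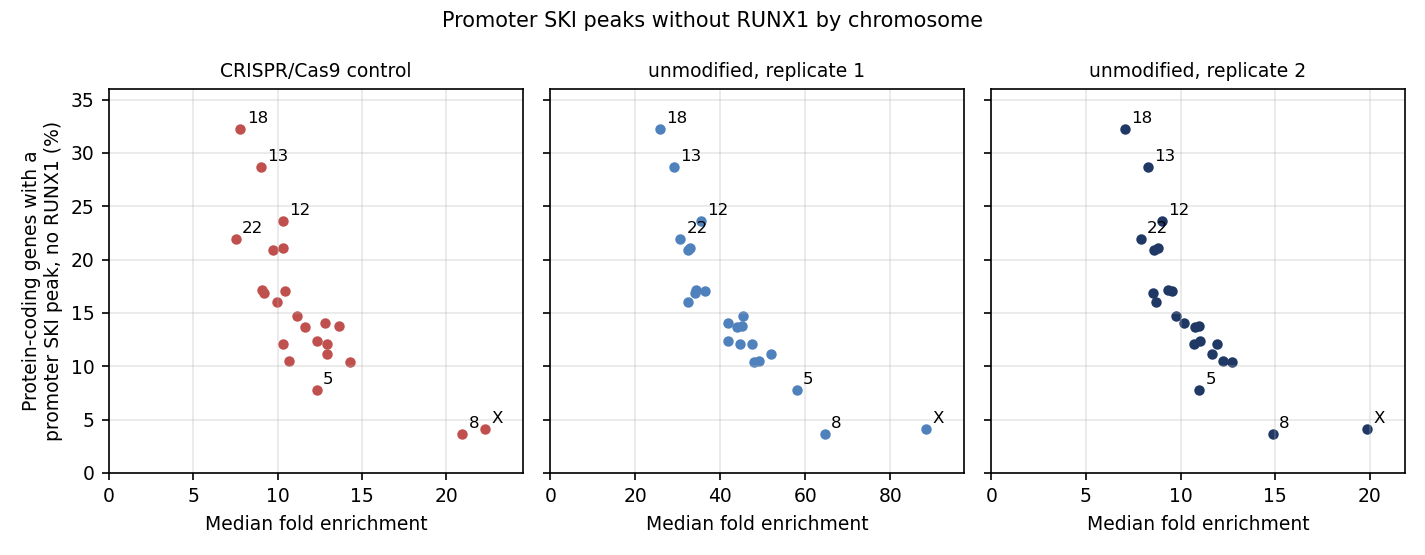
Share of protein-coding genes with a promoter SKI peak without RUNX1 on each chromosome (vertical axis) against the median fold enrichment of those peaks on it (horizontal axis), in control cells and unmodified replicates 1 and 2; the 3 lowest and 4 highest by share are named. Chromosomes 8 and X had the smallest shares of genes with a member and the highest medians in all 3 lists, and chromosome 18 had the largest share.

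The promoters of the members' genes were rich in GC and CpG. In RefSeq windows matched by symbol, for genes with promoter SKI peaks of only one kind, the median GC content was 66.7% at 3702 promoters of genes with members, against 63.3% at 538 promoters of genes with a RUNX1-bound promoter SKI peak and 62.3% at all 22132. CpG-rich windows (GC over 55% and observed over expected CpG above 0.6) made up 72.6% (95% Wilson interval 71.2 to 74.0), 57.1% (52.8 to 61.2) and 56.4% (55.7 to 57.0) of these sets. The GC box GGGCGGG was in 53.1%, 44.6% and 42.4% of them, the ETS core CCGGAA in 25.2%, 20.3% and 21.2%, and the GC-rich SMAD element GGCGCC in 32.1%, 25.1% and 24.3%. Both strands were searched, and the part of GC content in these shares was not tested. The 3702 windows came from 2399 genes, and the intervals count windows of 1 gene as separate, so they can be too narrow. With lists of equal length the ETS share of members was 21.5% (19.0 to 24.2), close to that of all promoters, and the GC box share was 51.3%. At genes with 1 start the ETS share was 32.5%, against 23.7% of all. CAGAC, the motif of the CAGA box and also a SMAD target, was in 47.5%, 44.1% and 44.8%.

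The RUNX core TGTGGT ran the other way, at 10.1% of promoters of genes with members (9.20 to 11.1), 16.5% of those with RUNX1-bound promoter SKI peaks (13.6 to 19.9) and 11.3% of all. Motifs rich in A and T were less common at the members' genes than at all promoters: TATAAA was in 6.29%, against 9.46% of all, and the C/EBP pattern TTNNGNAA in 25.9%, against 31.4% of all. The CCAAT box was in 30.8% of the members' promoters, 28.3% of those with RUNX1-bound promoter SKI peaks and 34.6% of all. A second gene starting within 1000 bp on the opposite strand was present for 11.4% of genes with members, 9.04% of genes with RUNX1-bound promoter SKI peaks and 12.3% of all. A match is a description of these windows and not a site of binding.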

How the data were processed

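The peak lists of 4 HL60 samples were read as deposited, with groups and replicates taken from their titles. The submitters' processing notes name bcl2fastq, Bowtie2, deepTools and MACS 1.4 and the builds hg19 and GRCh37. Library depth and the control for each ChIP were not given in the sources used here. Per the file headers, the deposited lists give for each peak, called per sample, a −log10 p-value, a count of tags and a fold enrichment, which is a ratio to background. The median tags per peak were 61 in control cells, 97 and 56 in unmodified replicates 1 and 2 and 56 for RUNX1. The authors' TSS class, set at 1250 bp per the file headers, the nearest gene and the signed distance were used as deposited.

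Overlaps of at least 1 bp were joined, and where a member met several peaks of a list the highest fold enrichment was taken. The 95% Wilson intervals of shares cover counting error alone. The overlap and motif steps were tested on simulated data. Of the 3646 members, 3589 matched 2979 RefSeq symbols by Ensembl gene identifier or else by name or synonym, and 57 did not. Promoter windows were found for 2399 of the 2811 genes with members only, 332 of the 394 with RUNX1-bound promoter SKI peaks only, and 15812 of 19980 in all; the 168 genes with both kinds were left out. Windows of genes with several starts were all counted, so windows are not independent in the intervals of promoter shares. In all, 25 motifs were searched.

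The members, gene lists and motifs were chosen with earlier results of these data known. Named genes are the 20 members with the smallest worst rank over the SKI lists, the 4 such members of each gene list, 5 in each direction of rank difference, the 5 closest to RUNX1 and the 5 non-members with the smallest overlap, and the 5 widest. The members of lowest p-value, those of genes with 4 peaks and further list members were named after their values were seen. A few list members are not reported here. Alternatives were a stricter −log10 p-value, lists of equal length, other overlap and distance rules, leaving out each list and other backgrounds and windows. Scripts ran on Python 3.11.15 with pandas 2.3.3, numpy 2.4.6, scipy 1.17.1 and matplotlib 3.10.9.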

Additional observations from a re-analysis of the deposited data

How the results depend on the processing

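Of 103 values recomputed under an alternative, 70 moved by less than their counting error or, for counts, by at most 1.5 times, and 33 moved further. The number of members, 3646, was 777 when each SKI and RUNX1 list kept the 5581 peaks with the smallest p-values, which leaves fewer peaks, and 3764 to 5453 with 1 SKI list left out. The share without RUNX1 among promoter SKI peaks in all 3 lists, 85.3%, was 83.2% at a −log10 p-value of at least 10, 68.1% with lists of equal length, 82.2% with no RUNX1 peak allowed within 1000 bp and 81.3% with none in the overlapping SKI peaks of any list, and 84.9% to 89.0% with 1 SKI list left out. The median fold enrichment in replicate 2, 9.62, was 11.0 at the stricter p-value, 16.2 with lists of equal length (18.0 in control cells and 63.4 in replicate 1, against 10.8 and 38.1) and 8.80 to 9.57 with 1 list left out. The share of members within 100 bp of the TSS, 51.9%, was 45.4% with lists of equal length, 54.8% when only peaks within 1000 bp of a TSS counted, and 43.5% to 53.8% with 1 list left out. The share of promoters with the RUNX core, 10.1%, was 5.27% in windows starting 100 bases before the gene, which are shorter, 8.71% at genes with 1 start and 8.91% with lists of equal length, and stayed below that of promoters with RUNX1 in the first 2 of these, at 7.62% and 18.4%. Gene lists with over 2 times the background share numbered 9, with 6 to 9 when 1 SKI list was left out, but 1 among genes with a promoter peak in replicate 1. That background, the single-start genes and the exclusion by the overlapping SKI peaks were chosen after seeing the data. For the changes whose construction does not show it, the cause was not tested. No paired analysis was possible because control cells have 1 SKI list and no test was made. Depth is unknown beyond the tags of a peak, no list has a replicate of its own kind in control cells or for RUNX1, and a missing RUNX1 peak at this depth is not evidence of absent RUNX1.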
